A study of Mus musculus with 20 samples.

Results

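WNT proteins are secreted ligands that bind Frizzled receptors together with the co-receptors LRP5 and LRP6. The canonical branch stabilises β-catenin, which then acts with TCF and LEF factors on target genes, while another branch orients cells within a sheet (planar polarity). Outside the cell, antagonists restrain the signal by capturing the ligand (SFRP proteins, FRZB, WIF1). Others, such as DKK1 with KREMEN1 as its partner, block the co-receptors. R-spondins strengthen the signal by removing the ligases that take Frizzled off the membrane. In the mouse gonad, WNT4 and R-spondin 1 act through β-catenin for the ovary and against the testis pathway, and Sfrp1 and Sfrp2 together are needed for normal male reproductive development.

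The 41 genes described here were listed by symbol for this report and matched to the probes by accession, symbol or synonym. They are the WNT ligands (17 genes), Frizzled receptors (10), LRP co-receptors (2), secreted antagonists (9), R-spondins (2) and the DKK co-receptor Kremen1. Wnt4 and Rspo1 were left out of this list and are given with the other pathway genes. The 41 genes were read by 59 of the 41174 gene probes, and all 41 were among the 23846 genes tested of 27670 named on the array.

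Each of the 20 arrays held RNA from 1 pair of XY gonads at embryonic day 11.5 (17 to 21 tail somites), freed of the mesonephroi, in Cy5. The 4 groups of 5 arrays were (B6x129S1)F1 and (129S1xB6)F1, which are hybrids of both cross directions, and the inbred C57BL/6J and 129S1/SvImJ, and the labels name no transgene or treatment in them. The labels do not say which parent of a cross was the mother. Cy3 held the same pool on every array, made from a cross of Sox9-ECFP (on C57BL/6J) with CD-1: gonads (4 XY pairs, 3 XX pairs) and entire embryos (4 XY, 2 XX). So a value here is the log2 ratio of gonad over pool and not a level, and the pool holds whole embryos as well as gonads. The question of the series is what differs in the XY gonad of C57BL/6J, a strain prone to sex reversal. Values per array are listed in the order of sample names (C2, C3, C4, E1, F2 in (B6x129S1)F1; L1, L2, L4, M3, M6 in (129S1xB6)F1; H1 to H4 and K2 in C57BL/6J; A3, A4, A6, D4, G3 in 129S1/SvImJ).

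Across the arrays 78.4% to 88.3% of gene probes were well above background in Cy5. The 8 gonad somatic markers (Wt1, Gata4, Lhx9, Amhr2 and others) averaged a log2 ratio of 1.81 to 2.71 over the pool on every array, and Sry was well above background on 13 of 20 arrays. That marker mean ran from 2.54 to 2.71 in C57BL/6J, against 1.81 to 2.49 in 129S1/SvImJ, without overlap. The 5 germ cell markers averaged 1.04 to 1.78 in C57BL/6J, against 1.03 to 2.07 in 129S1/SvImJ. Without the array A4, which gave the 1.03, the 129S1/SvImJ range was 1.58 to 2.07. Markers of mesonephros and nephric duct, tissue that the dissection removes, averaged -0.34 to 0.52 over all arrays. The 129S1/SvImJ array A4 stood apart: the SD of its log2 ratios over all genes tested was 0.456, against 0.608 to 0.702 on the other 19 arrays. Among the 12 WNT genes that averaged below -1 over the pool, A4 gave the highest ratio of the 20 arrays for 8, and their median was -0.733 on A4, against -1.96 to -1.47 on the others. The main results that A4 moves are given with and without it.

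The probes behind the strain differences are shown first, by the leading 30 of their 60 bases as the deposited files give them, because 2 of these genes have a second probe that did not give the same difference. No letter is marked in them.
Sfrp1, brightest probe: cggaatcagtatagcgtggaaggagacagt
Sfrp1, other probe: gtgcattagtaattagaaatagtctaacct
Wnt9a, brightest probe: aaacgtctgccggctggtttgtttctgtat
Wnt9a, other probe: acacaaatatgagacctcgctcaaggtggg
Wnt6, brightest probe: attcccctgaaaggccctttgctagttctg
Wnt6, other probe: ttcctcagaattactgggatggatgggtga
Fzd6, only probe: ggccgagctgtcgattccccttttaagtgt

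Promoters are shown for the ligands Wnt6 and Wnt9a, both higher in C57BL/6J, and for Dkk1, an antagonist gene known as a feedback target of the pathway and one of the most variable genes here. The 250 bases before the start that the RefSeq promoter table (GRCm38.p6) uses for each gene are given 5′ to 3′ on the strand of the gene, with matches to the TCF/LEF core written as CTTTGA or CTTTGT on either strand in capitals.
Wnt6, chr1:74771642-74771891, plus strand: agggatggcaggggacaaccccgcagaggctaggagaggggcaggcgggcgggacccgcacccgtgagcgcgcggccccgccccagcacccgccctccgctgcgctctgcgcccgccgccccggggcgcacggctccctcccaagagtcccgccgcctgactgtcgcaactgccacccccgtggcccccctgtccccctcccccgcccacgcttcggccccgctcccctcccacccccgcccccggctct
Wnt9a, chr11:59306680-59306929, plus strand: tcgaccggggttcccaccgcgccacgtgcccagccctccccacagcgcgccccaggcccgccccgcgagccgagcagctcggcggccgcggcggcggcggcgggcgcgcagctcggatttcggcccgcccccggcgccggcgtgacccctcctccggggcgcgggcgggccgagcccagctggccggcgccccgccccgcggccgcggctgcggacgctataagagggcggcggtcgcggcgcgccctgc
Dkk1, chr19:30549497-30549746, minus strand: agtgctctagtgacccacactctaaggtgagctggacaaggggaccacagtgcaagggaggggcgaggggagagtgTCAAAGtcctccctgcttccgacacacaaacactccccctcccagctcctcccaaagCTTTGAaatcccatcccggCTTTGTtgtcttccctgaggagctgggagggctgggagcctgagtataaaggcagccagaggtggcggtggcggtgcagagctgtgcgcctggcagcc
In the RefSeq gene table of the same build, the Wnt6 record begins at 74754342, upstream of its window, and the Wnt9a record at 59306849, within its window, so both windows lie wholly or partly inside the gene record. The Dkk1 window ends where its record begins on the minus strand. The Dkk1 window held 3 matches and the Wnt6 and Wnt9a windows 0. The table held 26 of the 41 genes, of which 7 windows (26.9%) carried at least 1 match (Wnt8b, Wnt11, Fzd1, Fzd7, Frzb, Dkk1 and Dkk2), against 27.7% of all 27025 promoters in it. Genes without an entry were Wnt5a, Wnt7b, Wnt10a, Fzd2, Fzd3, Fzd6, Fzd8, Lrp5, Lrp6, Sfrp1, Sfrp4, Dkk3, Rspo2, Rspo3 and Kremen1. A match is a run of letters and was not tested as a site.

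More of the 41 genes lay below the pool in the XY gonad than above it. Over the 20 arrays the mean log2 ratio was above 1 for 3 of 41 genes (Wnt6, Wnt5b and Fzd4), against 3.43% of all genes tested, and below -1 for 12 of 41, against 3.77%. It was above 0 for 15 of 41, against 56.8% of all genes. These counts rest on the brightest probe of each gene and on the background and normalisation steps. The mean of Fzd4 was 0.85 without background subtraction and 0.89 with median centring in place of loess. Without background subtraction Wnt2, Dkk2 and Rspo2 averaged -0.89, -0.96 and -0.97. In such bulk samples, fewer cells of a type and less RNA per cell cannot be told apart. The gonad carried Cy5 and the pool Cy3 on every array, so dye and tissue cannot be told apart in these ratios either. Ligands spanned the widest range, with 7 of 17 above 0 and 10 below.

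**Figure D1:**
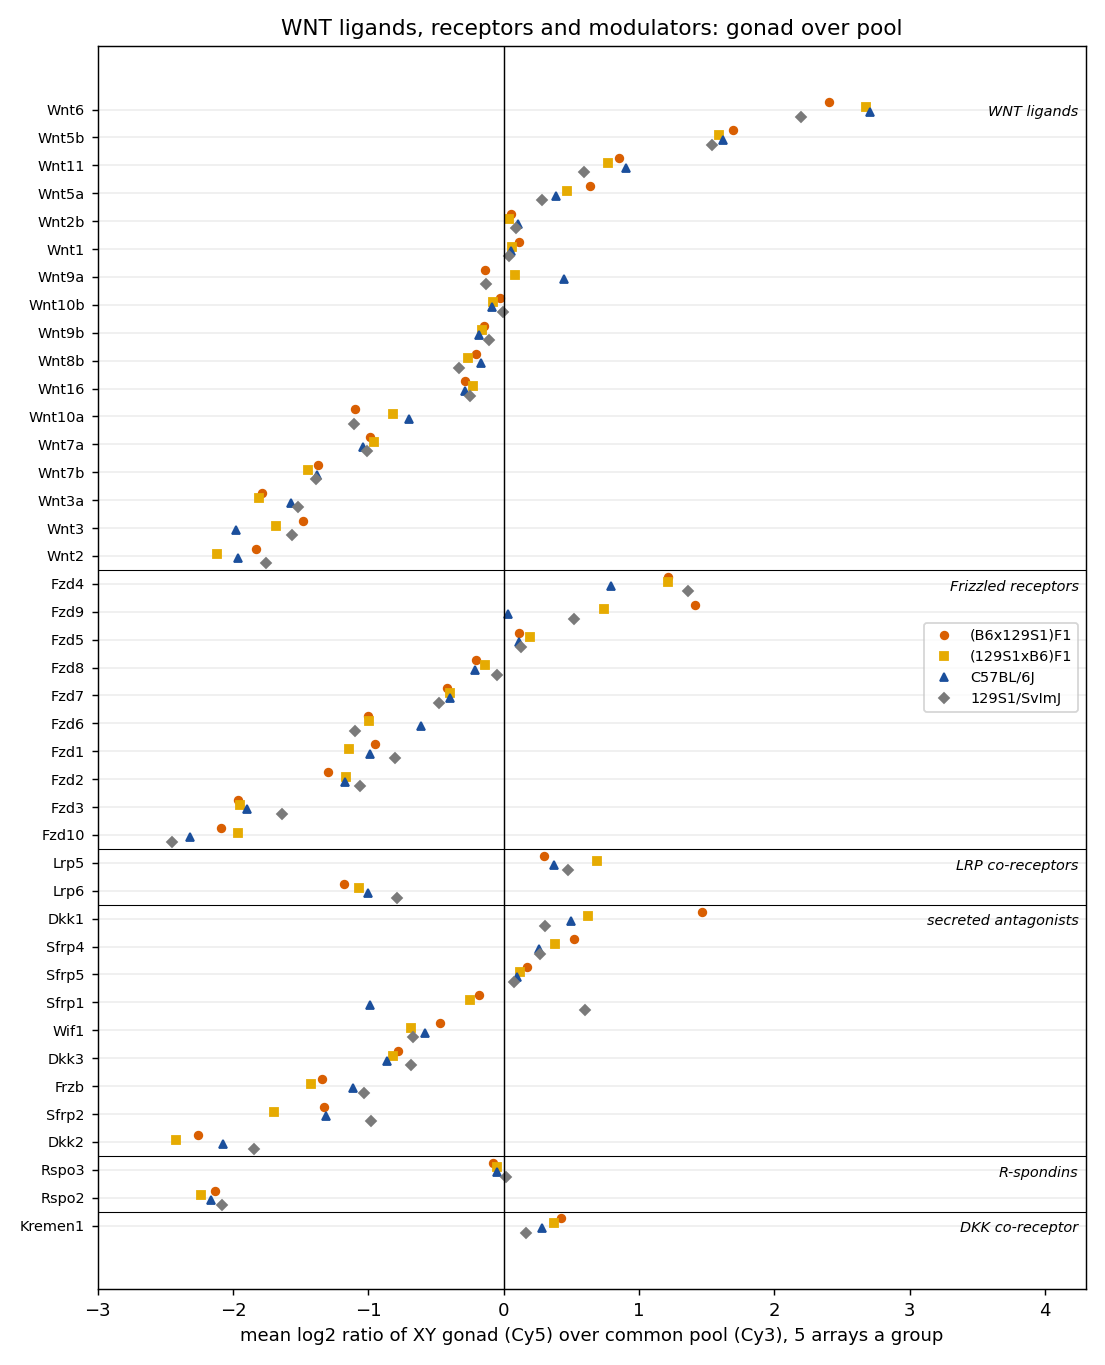
Mean log2 ratio of XY gonad over the pool for each of the 41 genes, grouped by role, with 1 symbol per group of 5 arrays. Wnt6, Wnt5b and Fzd4 lie highest and Fzd10, Rspo2 and Dkk2 lowest, while Sfrp1 and Wnt9a are among the genes whose group means lie apart.

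Wnt6, a canonical ligand of epithelia, had the highest ratio over the pool of the 41 genes, 2.50 ± 0.30 (SD over 20 arrays), or 5.64-fold. Its other probe lay as high, at 2.25 to 3.57 over the arrays. Wnt5b, a ligand mostly of the non-canonical branch, read 1.83, 1.43, 1.61, 1.74 and 1.87 in (B6x129S1)F1, 1.89, 1.70, 1.02, 1.45 and 1.92 in (129S1xB6)F1, 1.86, 1.59, 1.77, 1.30 and 1.59 in C57BL/6J, and 1.50, 1.60, 1.54, 1.69 and 1.38 in 129S1/SvImJ. All 20 of its values were above 1, and the groups overlapped. Its other probe was also above 0 on every array, between 0.32 and 1.95. Wnt11, another non-canonical ligand, known for kidney branching, read 1.12, 0.71, 0.73, 0.55 and 1.14 in (B6x129S1)F1, 1.36, 0.68, 0.53, 0.45 and 0.82 in (129S1xB6)F1, 1.36, 0.69, 0.95, 0.61 and 0.90 in C57BL/6J, and 0.67, 0.42, 0.61, 1.35 and -0.088 in 129S1/SvImJ. It was above the pool on 19 of 20 arrays, with the 129S1/SvImJ array G3 below it. Wnt5a, the main non-canonical ligand of the embryo, averaged 0.44 ± 0.41.

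Several other ligands lay far below the pool. Wnt2, known from lung and placenta, read -1.79, -1.27, -2.18, -2.19 and -1.70 in (B6x129S1)F1, -2.22, -2.13, -1.98, -2.26 and -2.01 in (129S1xB6)F1, -2.12, -2.04, -1.76, -2.06 and -1.82 in C57BL/6J, and -2.14, -0.63, -1.73, -1.90 and -2.39 in 129S1/SvImJ. Only the 129S1/SvImJ array A4 stood above -1. How far below 0 Wnt2 lies rests on the background step. Without background subtraction its mean was -0.89, and with the processed signals -2.79. The Cy5 signals of Wnt2, Wnt3 and Wnt3a were dim, with median net signals of 80.3, 86.9 and 58.3. Wnt3 (-1.68 ± 0.40), needed for the primitive streak, Wnt3a (-1.67 ± 0.36), needed for the tail and somites, and Wnt7b (-1.40 ± 0.21), a ligand of lung and kidney epithelium, were also below -1 on average, and A4 was the highest of the 20 arrays for Wnt2, Wnt3, Wnt3a and Wnt7b. Wnt7a, which patterns the Müllerian duct and limb, averaged -0.998 ± 0.22 and Wnt10a, a ligand of teeth and skin appendages, -0.93 ± 0.33. Wnt1, Wnt2b, Wnt8b, Wnt9b, Wnt10b and Wnt16 lay near the pool, between -0.26 (Wnt16) and 0.072 (Wnt2b) on average, with SDs over the arrays of at most 0.13. Median net Cy5 signals of Wnt2b, Wnt10b and Wnt16 were 55.5, 62.9 and 39.6, where the 95th percentile of the negative controls was 18.4 to 31.7 per array.

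Among the Frizzled receptors, Fzd4, which also binds Norrin and is needed for retinal vessels, read 0.86, 0.94, 1.64, 1.38 and 1.25 in (B6x129S1)F1, 0.43, 1.26, 1.55, 1.55 and 1.27 in (129S1xB6)F1, 0.71, 1.48, 1.23, 1.27 and -0.70 in C57BL/6J, and 1.69, 1.16, 0.89, 1.15 and 1.91 in 129S1/SvImJ. The C57BL/6J array K2 alone was below the pool. Fzd9 averaged 0.68 ± 0.84 and Fzd5, needed in yolk sac and eye, 0.14 ± 0.080. The other 7 receptors averaged below 0, from -0.15 for Fzd8 to -2.21 for Fzd10. Fzd10, known from the dorsal neural tube and limb, read -1.69, -1.98, -2.59, -2.24 and -1.97 in (B6x129S1)F1, -1.95, -2.07, -1.87, -1.37 and -2.57 in (129S1xB6)F1, -2.37, -2.57, -2.16, -2.37 and -2.11 in C57BL/6J, and -2.74, -1.93, -2.20, -2.65 and -2.73 in 129S1/SvImJ. Its groups overlapped, and every value was below -1. The other Fzd10 probe lay between -1.38 and -0.54. Fzd3, a planar polarity receptor of neurons, averaged -1.86 ± 0.25 by its brightest probe, which the files give under a clone name that is a synonym of Fzd3, and its other probes gave smaller ratios of -0.81 to -0.086. Fzd8 lost its value on array C3, where the spot carried an outlier mark, and was fitted on 19 arrays. The co-receptor Lrp5 averaged 0.46 ± 0.50 and Lrp6 -1.01 ± 0.29 by its brightest probe. The other Lrp6 probe lay near the pool, between -0.26 and 0.45, so how far Lrp6 lies below the pool rests on 1 probe.

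Among the antagonists, Dkk1, which binds LRP5 and LRP6, averaged 0.72 ± 0.80, Sfrp4 0.36 ± 0.15 and Sfrp5 0.12 ± 0.073. The other 6 lay below 0. Dkk2, which can act for or against LRP6, read -2.13, -2.30, -2.28, -2.27 and -2.32 in (B6x129S1)F1, -2.80, -2.37, -2.13, -2.25 and -2.55 in (129S1xB6)F1, -2.11, -2.35, -1.81, -2.07 and -2.02 in C57BL/6J, and -1.88, -0.66, -2.003, -2.42 and -2.25 in 129S1/SvImJ. The R-spondin Rspo2, needed for limb and lung, read -1.97, -2.35, -2.03, -2.26 and -2.05 in (B6x129S1)F1, -2.07, -2.40, -2.51, -2.07 and -2.13 in (129S1xB6)F1, -2.38, -2.30, -2.01, -2.18 and -1.92 in C57BL/6J, and -2.67, -0.81, -2.04, -2.68 and -2.22 in 129S1/SvImJ by its brightest probe, and its other probe stayed between -0.13 and 0.26. Both were below -1 on every array but A4, and their Cy5 signals were dim, with median net signals of 57.4 and 67. How far below 0 they lie rests on the background step: without background subtraction the means were -0.96 for Dkk2 and -0.97 for Rspo2, and with the processed signals -3.42 and -3.52. Rspo3, a vascular and placental R-spondin, averaged -0.039 ± 0.10. Frzb, an antagonist of cartilage, averaged -1.23 ± 0.40, Wif1 -0.60 ± 0.22, Dkk3 -0.79 ± 0.22 and Kremen1 0.31 ± 0.14.

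By the well above background mark on at least 4 of 5 arrays, 40 of 41 genes were detected in (B6x129S1)F1, 38 in (129S1xB6)F1, 41 in C57BL/6J and 41 in 129S1/SvImJ. Wnt16 missed that mark in (B6x129S1)F1, and Wnt2b, Dkk2 and Rspo2 missed it in (129S1xB6)F1. The dimmest arrays were the hybrids C4, E1, M3 and M6, which make up slide 5. Their median net Cy5 over gene spots was 87.3 to 104, against 113 to 207 on the other arrays. The part of the slide in these detection counts was not tested. No group lacked a signal on every array for any of the 41 genes, and all 41 were above the 95th percentile of negative controls on at least 4 of 5 arrays of each group.

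The strain comparison asks which of these genes differ between C57BL/6J and 129S1/SvImJ gonads. Sfrp1 was lower in C57BL/6J, while the ligands Wnt9a and Wnt6 and the receptor Fzd6 were higher. By limma with Benjamini-Hochberg adjustment over all 23846 genes, 4 of 41 genes were called at an adjusted p under 0.05, where 4.15% of all genes tested were called. That was 3 of 41 higher in C57BL/6J, against a background of 2.47%, and 1 of 41 lower, against 1.67%. Without array A4, 4 of 41 were again called, against 4.5% of all genes, with Wnt8b in the place of Wnt6. The median difference of the 41 genes was -0.039, beside 0.0042 for all genes tested, with 17 of 41 above 0, beside 51.7% of all genes.

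**Figure D2:**
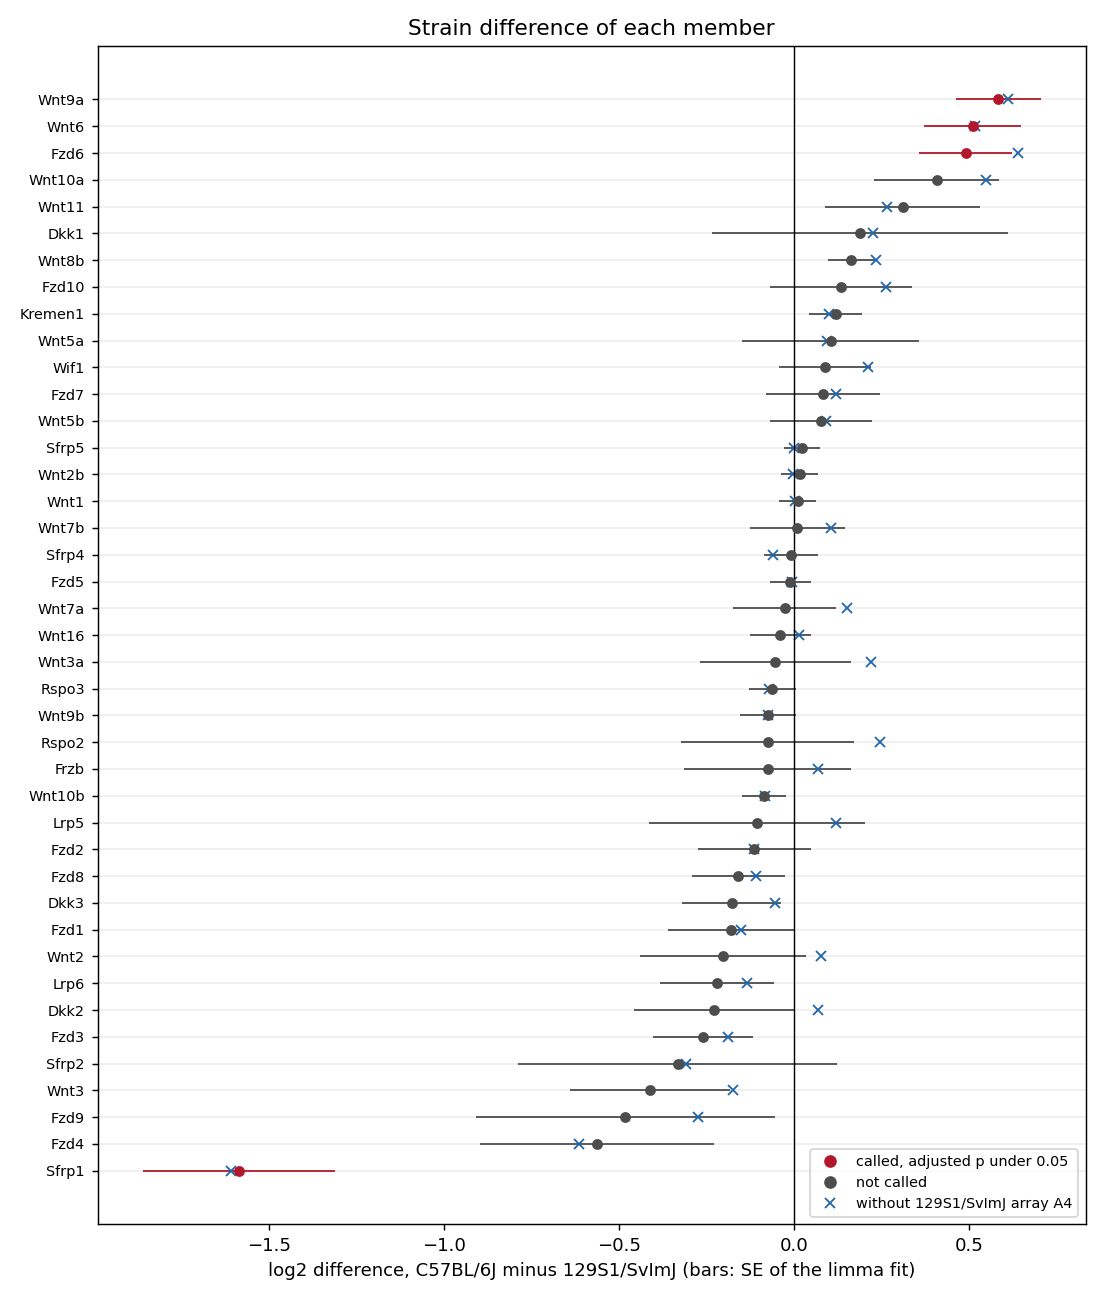
Log2 difference of each gene, C57BL/6J minus 129S1/SvImJ, with the SE of the limma fit as bars and the value without array A4 as a cross. Wnt9a, Wnt6 and Fzd6 lie to the right and Sfrp1 far to the left, and leaving out A4 moves Fzd6 up to 0.64.

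Sfrp1 encodes a secreted antagonist that captures WNT ligands. Its brightest probe read -0.60, -0.63, -0.73, -0.68 and -2.29 in C57BL/6J, against 0.39, 0.52, 0.65, 0.24 and 1.20 in 129S1/SvImJ. Every C57BL/6J value was below every 129S1/SvImJ value, and K2 lay far below the other 4. The means were -0.98 ± 0.73 in C57BL/6J and 0.60 ± 0.37 in 129S1/SvImJ (SD, n = 5 each), a log2 difference of -1.59 ± 0.27 (3-fold lower; limma, adjusted p = 0.00128). Without K2 it was -1.26 ± 0.19, adjusted p = 0.000386 in the limma fit. Within slides 1 to 4 it was -0.98, -1.15, -2.94 and -1.88. The genes whose arrays did not overlap with C57BL/6J lower were 1 of 41, against 1.71% of all genes.

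The second Sfrp1 probe did not show this difference. It read 0.062, 0.18, 0.026, 0.12 and -0.26 in C57BL/6J, against -0.52, -0.079, -0.36, -0.25 and 0.51 in 129S1/SvImJ, and the strains overlapped. The log2 difference was 0.17 ± 0.16, adjusted p = 0.781 in limma over all probes. Median net Cy5 signals were 2673 for the brightest probe and 139 for the other, both over the negative controls on all 20 arrays. With both probes averaged, the difference was -0.71 (limma, adjusted p = 0.0503). Which transcripts each probe reads was not tested, and the strain difference of Sfrp1 is that of 1 probe.

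**Figure D3:**
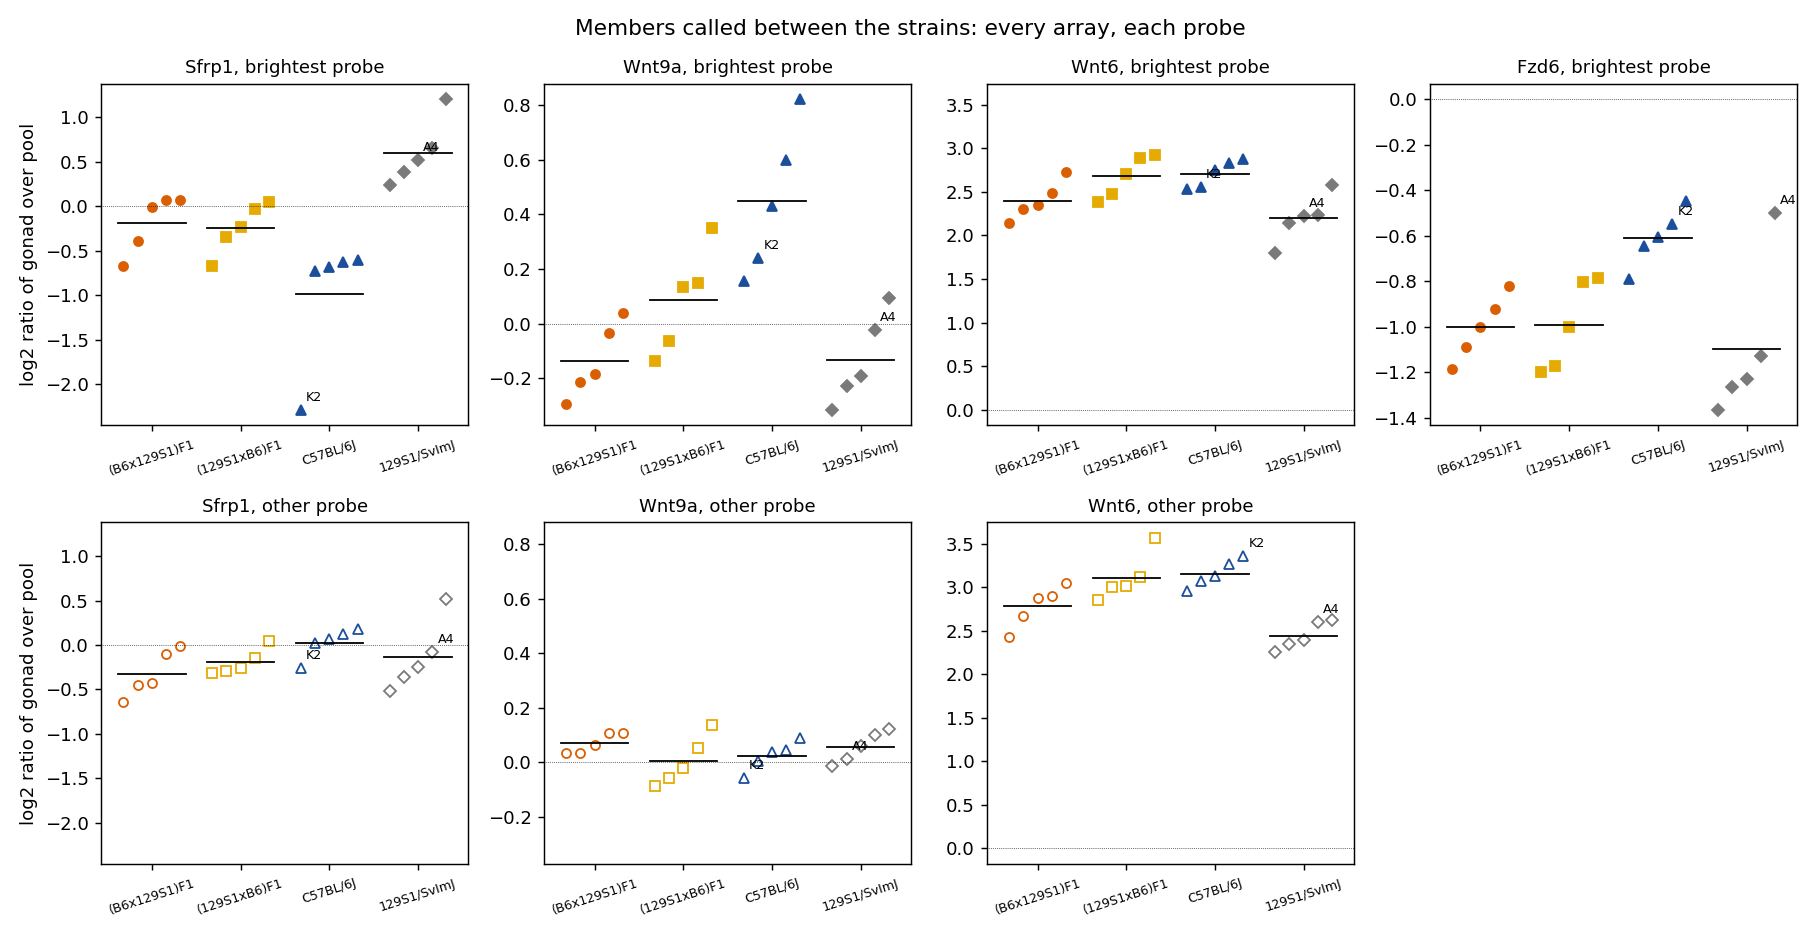
Log2 ratio of gonad over pool on every array for the 4 genes called between the strains, with group means as lines, brightest probe above and other probe below. The strains lie apart for Sfrp1 and Wnt9a by the brightest probe and for Wnt6 by the other probe, and K2 is the low C57BL/6J point of Sfrp1.

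Wnt9a, a ligand known for joint and skeletal development, read 0.43, 0.60, 0.82, 0.15 and 0.24 in C57BL/6J, against -0.32, -0.024, -0.19, -0.23 and 0.094 in 129S1/SvImJ by its brightest probe. The arrays of the strains did not overlap, as for 1 of 41 genes with C57BL/6J higher, against 2.54% of all genes. The means were 0.45 ± 0.27 in C57BL/6J and -0.13 ± 0.17 in 129S1/SvImJ (SD, n = 5 each), which differ by 0.58 ± 0.12 (1.5-fold higher; limma, adjusted p = 0.00621). Within slides 1 to 4 it was 0.90, 0.62, 0.43 and 0.060. The second probe, with a median net Cy5 of 63.7 against 251 for the brightest, gave -0.033 ± 0.050, adjusted p = 0.898 in limma over all probes, and all its values lay between -0.085 and 0.14. The neighbouring ligand gene on chromosome 11, Wnt3a, differed by -0.054 ± 0.22 (limma, adjusted p = 0.974).

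Wnt6 read 2.88, 2.75, 2.83, 2.53 and 2.55 in C57BL/6J, against 2.14, 2.23, 1.80, 2.58 and 2.24 in 129S1/SvImJ by its brightest probe. The highest 129S1/SvImJ array, D4, overlapped the lower C57BL/6J arrays. The difference was 0.51 ± 0.14 (1.42-fold higher; limma, adjusted p = 0.0411). The other probe read 3.07, 3.27, 2.95, 3.12 and 3.36 in C57BL/6J, against 2.25, 2.60, 2.39, 2.35 and 2.62 in 129S1/SvImJ. On that probe the strains did not overlap, and the difference was 0.71 ± 0.13, adjusted p = 0.00236 in limma over all probes. Within slides 1 to 4 the brightest probe gave 0.49, 0.52, 0.75 and 0.29. The call of the brightest probe was kept in 3 of the 10 fits that each leave out 1 array of the strains, with differences of 0.41 to 0.61 and limma adjusted p from 0.0138 to 0.118. It was lost without A3 (0.50), A4 (0.52), A6 (0.41), G3 (0.52), H1 (0.47), H2 (0.50) or H3 (0.48). Its neighbour on chromosome 1, Wnt10a, differed by 0.41 ± 0.18 (limma, adjusted p = 0.313).

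Fzd6, a receptor known for planar polarity of hair follicles, has 1 probe and read -0.61, -0.65, -0.45, -0.79 and -0.55 in C57BL/6J, against -1.23, -0.50, -1.27, -1.36 and -1.13 in 129S1/SvImJ. The 129S1/SvImJ array A4 lay among the C57BL/6J arrays, and the other 4 lay below them all. The difference was 0.49 ± 0.13 (1.4-fold higher; limma, adjusted p = 0.0437). Without A4 it was 0.64 ± 0.10, adjusted p = 0.000485 in the limma fit. Of the 10 fits without 1 array, 2 kept the call (without A4 or H4). It was lost without A3 (0.46), A6 (0.45), D4 (0.42), G3 (0.48), H1 (0.49), H2 (0.50), H3 (0.45) or K2 (0.47), with limma adjusted p up to 0.128. Within slides 1 to 4 it was 0.77, -0.15, 0.72 and 0.34, with A4 as the 129S1/SvImJ array of slide 2.

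In the main fit, Wnt8b, a ligand of the forebrain, was called between the strains without A4 but not with it. The difference was 0.16 ± 0.066 (limma, adjusted p = 0.25) on all arrays and 0.23 ± 0.051, adjusted p = 0.00987 without it in the limma fit. Wnt8b lay close to the pool, at -0.17 ± 0.077 in C57BL/6J and -0.33 ± 0.17 in 129S1/SvImJ (SD, n = 5 each). Fzd2 differed by -0.11 ± 0.16 (limma, adjusted p = 0.892) by its brightest probe. Its other probe read -0.96, -0.53, -0.58, -0.63 and -0.75 in C57BL/6J, against -1.74, -0.35, -1.60, -1.52 and -1.46 in 129S1/SvImJ. On that probe A4 lay above every C57BL/6J array, and the other 129S1/SvImJ arrays lay below them all. Of the genes not called, Fzd4 and Fzd9 had the next lowest differences, -0.56 ± 0.33 (limma, adjusted p = 0.537) and -0.48 ± 0.43 (limma, adjusted p = 0.765). Without K2, which was low for Fzd4 and high for Fzd9, they were -0.19 ± 0.24, adjusted p = 0.936 and -0.81 ± 0.40, adjusted p = 0.452 in the limma fit. The Fzd9 difference was also -0.28 without A4, -0.29 without D4 and -0.82 without G3.

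By role, 2 of 17 ligands were called higher and 0 lower, 1 of 10 Frizzled receptors higher and 0 lower, and 0 of 9 antagonists higher and 1 lower, where 2.47% of all genes were called higher and 1.67% lower. None of the 2 LRP co-receptors, the 2 R-spondins or Kremen1 was called by limma. The gonad somatic marker mean was higher in C57BL/6J without overlap, as given above, alongside Wnt9a, Wnt6 and Fzd6. All 8 of those markers had a difference above 0, with a median of 0.38 and 1 of 8 called by limma. The 5 germ cell markers all had a difference below 0, with a median of -0.17 and 0 of 5 called by limma. The part of these markers in the WNT differences was not tested.

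The spread between gonad pairs of 1 group was wide for some of these genes. The median SD within groups was 0.241 over the 41 genes, beside 0.183 over all genes tested, and Sfrp2, Fzd9 and Dkk1 had the largest (0.77, 0.72 and 0.72).

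Sfrp2, the close relative of Sfrp1, read 0.29, -1.52, -1.51, -1.76 and -2.13 in (B6x129S1)F1, -2.23, -2.40, 0.038, -1.38 and -2.53 in (129S1xB6)F1, -1.34, -1.88, -1.38, -0.73 and -1.24 in C57BL/6J, and -0.74, -0.88, -1.56, -1.33 and -0.40 in 129S1/SvImJ. The hybrid arrays C2 and L4 stood above the rest of their groups. Fzd9 read 2.04, 1.61, 1.12, 0.87 and 1.44 in (B6x129S1)F1, 1.41, 0.42, 0.18, 0.61 and 1.10 in (129S1xB6)F1, -0.15, -0.30, -0.55, -0.18 and 1.36 in C57BL/6J, and -0.35, 1.34, 1.16, 1.28 and -0.84 in 129S1/SvImJ. In C57BL/6J K2 was high and H1 to H4 were below 0, and in 129S1/SvImJ A3 and G3 were low against the other 3. Dkk1 read 2.08, 1.48, 1.89, 0.16 and 1.72 in (B6x129S1)F1, 1.40, 0.44, -0.42, 0.62 and 1.09 in (129S1xB6)F1, 0.51, 0.15, 0.64, -0.13 and 1.31 in C57BL/6J, and 0.15, 0.45, 0.74, 1.20 and -1.01 in 129S1/SvImJ. The 5 highest Dkk1 values of the 20 arrays were in (B6x129S1)F1 (4 arrays) and (129S1xB6)F1 (1 array), and within C57BL/6J K2 was the highest for both Dkk1 and Fzd9. The second Dkk1 probe gave 1.09, 0.50, 0.46, -0.69 and 0.59 in (B6x129S1)F1, where C2 was highest and E1 lowest on both probes.

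**Figure D4:**
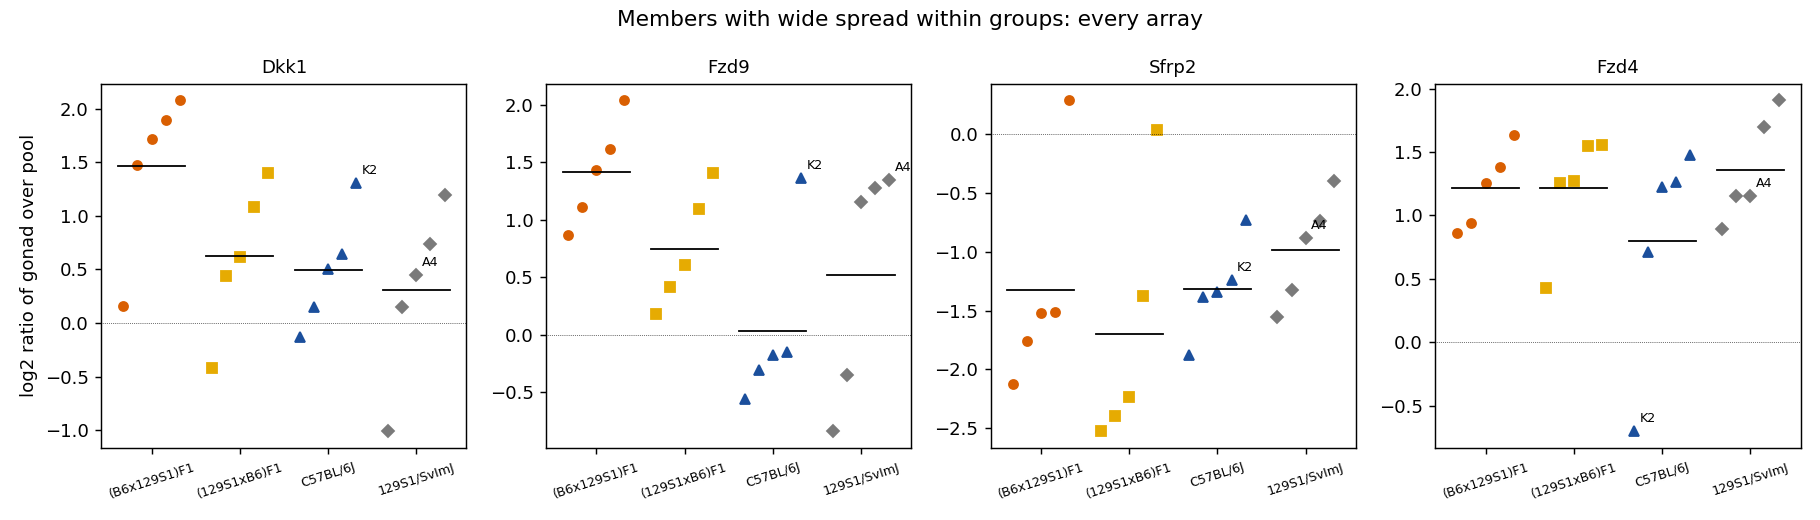
Log2 ratio of gonad over pool on every array for Dkk1, Fzd9, Sfrp2 and Fzd4, with group means as lines. Single arrays such as K2 for Fzd9 and Fzd4 lie far from the rest of their group.

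Comparing the reciprocal crosses asks whether the direction of the cross mattered. By limma, 0 of 41 genes were called, against 0% of all genes, and 0 of 41 reached an unadjusted p under 0.05, against 2.51%. The largest differences were those of Dkk1 (0.84 ± 0.42), Fzd9 (0.67 ± 0.43) and Sfrp2 (0.37 ± 0.46) upwards in (B6x129S1)F1, and of Lrp5 (-0.39 ± 0.31), Wnt10a (-0.28 ± 0.18) and Wnt6 (-0.28 ± 0.14) downwards. Every one had an adjusted p of 1 in limma, and the groups overlapped for each. Without M3 the Lrp5 difference was -0.14, and that of Wnt10a was -0.19 without C4 and -0.16 without F2. The Sfrp2 difference was -0.030 without C2, 0.17 without M6, 0.20 without L2, 0.24 without L1, 0.57 without F2 and 0.81 without L4. Of the 41 genes 26 had a difference above 0, beside 53.8% of all genes, among them all 9 antagonists. Lrp5, the co-receptor, read 0.45, -0.017, -0.024, 1.07 and 0.0014 in (B6x129S1)F1 and 0.17, 0.44, 0.43, 1.69 and 0.71 in (129S1xB6)F1. The high values were E1 and M3. Lrp5 read 0.034, 0.43, 0.47, 0.53 and 0.40 in C57BL/6J, against -0.36, 1.38, 0.25, 0.15 and 0.96 in 129S1/SvImJ. Here A4 was highest, and the strains overlapped.

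Wnt10a read -0.77, -0.97, -1.49, -0.68 and -1.59 in (B6x129S1)F1 and -0.74, -0.81, -0.95, -0.58 and -0.99 in (129S1xB6)F1. Its low hybrid arrays were C4 and F2. In the inbred strains Wnt10a read -0.77, -0.999, -0.53, -0.45 and -0.75 in C57BL/6J, against -1.35, -0.55, -1.06, -1.32 and -1.26 in 129S1/SvImJ, with A4 the only 129S1/SvImJ array among those of C57BL/6J. Without A4 the strain difference of Wnt10a was 0.55 ± 0.17, adjusted p = 0.0805 in the limma fit.

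The comparisons of the hybrids with each strain ask where the F1 gonad lies between its parents. They share the hybrid arrays with each other and the strain arrays with the strain comparison. Against C57BL/6J, 1 of 41 genes was called by limma, against 1.69% of all genes tested, and it was lower in the hybrids, against a background of 0.801% called lower. This was Wnt9a, which read -0.18, -0.21, -0.29, -0.034 and 0.038 in (B6x129S1)F1 and -0.064, 0.35, 0.15, 0.13 and -0.14 in (129S1xB6)F1. Its hybrid means were -0.14 ± 0.14 and 0.086 ± 0.19, beside 0.45 ± 0.27 in C57BL/6J (SD, n = 5 each), and the mean of the F1 groups minus C57BL/6J was -0.48 ± 0.10 (limma, adjusted p = 0.0219). L2 was the 1 hybrid array above the lowest C57BL/6J arrays. The call was kept in 12 of 15 fits without 1 array and lost without H1 (-0.48), H2 (-0.44) or H3 (-0.38). With slide as a block it was -0.42 (limma, adjusted p = 0.161), and within slides 2 to 4 it was -0.50, -0.17 and -0.28. The 5 germ cell markers averaged 1.75 to 2.34 in (B6x129S1)F1 and 1.93 to 2.41 in (129S1xB6)F1, against 1.04 to 1.78 in C57BL/6J, with 1 of 5 called higher in the hybrids by limma. Their part in the result was not tested.

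Other differences of the hybrids from C57BL/6J did not pass the test. They were 1.04 ± 0.37 for Fzd9, 0.77 ± 0.24 for Sfrp1 and 0.55 ± 0.37 for Dkk1 among the largest upwards, and -0.39 ± 0.12 for Fzd6 and -0.27 ± 0.21 for Frzb downwards, with limma adjusted p of 0.227, 0.142, 0.666, 0.12 and 0.722 in that order. Without K2, the Sfrp1 difference was 0.44 ± 0.17, adjusted p = 0.257 in the limma fit and that of Fzd9 1.38 ± 0.35, adjusted p = 0.0603. Frzb read -1.39, -1.16, -1.15, -0.99 and -2.02 in (B6x129S1)F1, -1.80, -1.52, -0.84, -1.46 and -1.49 in (129S1xB6)F1, -1.48, -1.25, -1.003, -1.02 and -0.79 in C57BL/6J, and -1.21, -0.46, -1.38, -1.63 and -0.50 in 129S1/SvImJ, and its groups overlapped. Fzd6 read -0.92, -0.82, -1.19, -1.09 and -1.001 in (B6x129S1)F1 and -1.002, -0.78, -1.17, -0.80 and -1.20 in (129S1xB6)F1, and L2 was the 1 hybrid array above a C57BL/6J array (H4).

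Against 129S1/SvImJ, 0 of 41 genes were called by limma, against 1.34% of all genes, and 8 of 41 had an unadjusted p under 0.05, against 12.7%. The largest were Dkk1 (0.74 ± 0.37), Fzd9 (0.56 ± 0.37) and Fzd10 (0.42 ± 0.18) upwards and Sfrp1 (-0.82 ± 0.24), Sfrp2 (-0.53 ± 0.40) and Dkk2 (-0.50 ± 0.20) downwards. Without A4 the Dkk2 difference was -0.20 (limma, adjusted p = 0.498). Without G3, that of Dkk1 was 0.41 and that of Fzd9 0.22, and Fzd9 gave 0.34 without A3. Sfrp1 read -0.67, -0.39, 0.074, -0.0036 and 0.068 in (B6x129S1)F1 and -0.35, -0.037, -0.23, 0.048 and -0.67 in (129S1xB6)F1, every hybrid value below every 129S1/SvImJ value and all but 2 above the -0.60 of the highest C57BL/6J array. The limma adjusted p for Sfrp1 was 0.116. The Wnt6 means of the hybrids lay between those of the strains, at 2.40 ± 0.22 in (B6x129S1)F1 and 2.68 ± 0.24 in (129S1xB6)F1, against 2.20 ± 0.28 in 129S1/SvImJ (SD, n = 5 each). The mean of the F1 groups minus 129S1/SvImJ was 0.34 ± 0.12 by the brightest probe (limma, adjusted p = 0.212) and 0.50 ± 0.11, adjusted p = 0.0316 by the other probe in limma over all probes. Wnt6 hybrids read 2.49, 2.35, 2.31, 2.72 and 2.14 in (B6x129S1)F1 and 2.89, 2.92, 2.39, 2.71 and 2.47 in (129S1xB6)F1 by the brightest probe. They overlapped both strains.

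Against the mid-parent value, 0 of 41 genes were called by limma, against 0.264% of all genes, and 7 of 41 had an unadjusted p under 0.05, against 9.91%. Fzd9 (0.80 ± 0.30), Dkk1 (0.64 ± 0.30) and Fzd10 (0.36 ± 0.14) were the largest upwards and Dkk2 (-0.38 ± 0.16), Sfrp2 (-0.36 ± 0.32) and Frzb (-0.31 ± 0.17) downwards, with limma adjusted p from 0.398 (Fzd9) to 0.741 (Sfrp2). Without A4 the Dkk2 difference from mid-parent was -0.23, and that of Sfrp2 was -0.57 without C2 and -0.58 without L4. Sfrp1 differed from mid-parent by -0.024 ± 0.19, which is within its SE. That mid-parent includes K2, without which the C57BL/6J mean of Sfrp1 was -0.66, against -0.98 with it. For any difference among the 4 groups, 2 of 41 genes were called by the limma F test, against 2.86% of all genes: Sfrp1 (adjusted p = 0.0126) and Wnt9a (adjusted p = 0.0168). Without A4, Fzd6 and Wnt8b were called as well.

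Wnt4 and Rspo1, the ovarian signals of the pathway, were high over the pool in every group and were not called between the strains. Wnt4 averaged 2.66 ± 0.45 in C57BL/6J and 2.02 ± 0.48 in 129S1/SvImJ (SD, n = 5 each), a difference of 0.64 ± 0.25 (limma, adjusted p = 0.226). Rspo1, whose product binds LGR receptors, averaged 1.75 ± 0.21 in C57BL/6J and 1.14 ± 0.33 in 129S1/SvImJ, and differed by 0.62 ± 0.20 (limma, adjusted p = 0.101).

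Of 12 genes listed as targets of the canonical branch, 4 were called higher in C57BL/6J by limma, against 2.47% of all genes, and 0 lower, against 1.67%. All 12 had a difference above 0, beside 51.7% of all genes, with a median of 0.29. The list was chosen with earlier results of these data known, so these counts describe the list and are not independent support. The 8 gonad somatic markers, all above 0 as well, had a median of 0.38 in the same comparison, and their part in the differences of the targets was not tested. Sp5, a transcription factor induced by WNT, was 2.42-fold higher (1.27 ± 0.25; limma, adjusted p = 0.00391), and Lef1, a nuclear partner of β-catenin, 1.6-fold (0.68 ± 0.16; limma, adjusted p = 0.0135). Rnf43, a ligase that removes Frizzled, differed by 0.71 ± 0.18 (limma, adjusted p = 0.0279) and the cyclin gene Ccnd1 by 0.40 ± 0.11 (limma, adjusted p = 0.0384). Axin2, the usual readout of the pathway, differed by 0.27 ± 0.15 (limma, adjusted p = 0.473). Without A4 these 4 calls were kept, and without K2 the adjusted p was 0.0558 for Rnf43 and 0.105 for Ccnd1. Against C57BL/6J, the hybrids had 0 of 12 called higher and 1 lower, where 0.893% and 0.801% of all genes were, and the gene was Sp5 (-1.01 ± 0.22; limma, adjusted p = 0.0174).

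**Figure D5:**
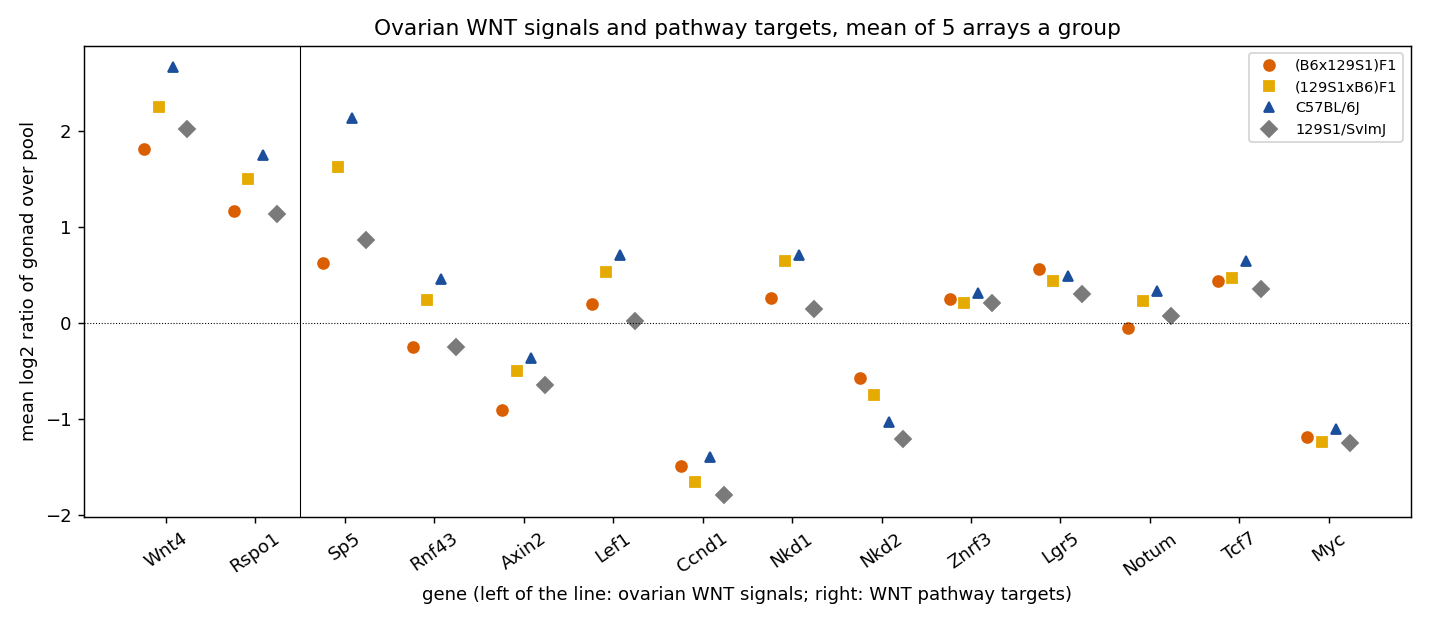
Mean log2 ratio of gonad over pool by group for Wnt4, Rspo1 and the 12 pathway targets, with 5 arrays per group. C57BL/6J lies above 129S1/SvImJ for every gene shown, most for Sp5.

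In the other pathway lists, 0 to 2 genes were called between the strains, where 4.15% of all genes were. Among 20 secretion and surface partners, Rnf43 was the 1 gene called between the strains by limma, followed by Cthrc1 (0.60 ± 0.27, adjusted p = 0.33) and Gpc3 (-0.35 ± 0.18, adjusted p = 0.417). Among 20 intracellular components, Lef1 and the β-catenin cofactor Bcl9l (0.34 ± 0.074; limma, adjusted p = 0.0106) were called higher and 0 lower, and the kinase gene Csnk1e came next (-0.90 ± 0.28; limma, adjusted p = 0.0961). Of the 9 planar polarity genes 0 were called by limma, with Vangl1 (0.35 ± 0.15, adjusted p = 0.271), Prickle2 (-0.20 ± 0.13) and Prickle1 (0.24 ± 0.17) of smallest p. The surface partners and intracellular components share genes with the target list, Rnf43 and Lef1 among them.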

How the data were processed

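Single gonad pairs were profiled on 2-colour Agilent arrays without dye swaps. The deposited files hold spot intensity per channel, written by Agilent Feature Extraction per the file headers, with flags for outliers and for spots well above background. Processed intensity columns stand beside them in the deposited files, and a deposited log2 table holds the values of Cy5 over Cy3, whose medians lay between 0.00054 and 0.042 per array and which correlated at 0.991 to 0.999 with the processed ratios over detected spots. Both were used as alternatives.

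Mean signals and median backgrounds went through normexp (offset 50), then loess, in limma 3.58.1 (R 4.3.3). Outlier spots were left out, spots of a probe were averaged, and the probe brightest on average stood for its gene. A gene entered if its probe carried the Cy5 flag for being above background on 4 or more of the 5 arrays of some group. These genes were tested in 1 model of the 4 groups (16 residual and 2.52 prior degrees of freedom), with Benjamini-Hochberg adjustment over 23846 genes and a threshold of 0.05. The fit was tested on simulated data. Probes were named through accession, symbol or synonym in the RefSeq gene table (GRCm38.p6), and otherwise kept the name in the files. The number of arrays limits the precision.

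The members and lists were chosen with earlier results of these data known. Values per array are given for genes called, for the 3 largest differences in each direction, the 4 highest and lowest ratios over the pool and the 3 largest SDs. In the other lists, genes called and up to 3 of smallest p were named. A limit from negative controls (95th percentile) was added after the data were seen. Alternatives covered background, normalisation, filter, probes, slide, sample-name letter and each array left out. The letter was taken as a possible litter, which the labels do not state.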

Additional observations from a re-analysis of the deposited data

Results flagged for a closer look

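For the 17 genes whose arrays are listed, each group of 5 was searched for an array far from its nearest neighbour. Chance marks about 1 in 20 groups of unselected genes, a rate that does not hold for genes chosen in part for large differences and SDs. Of the 68 groups 7 were marked. In C57BL/6J, K2 read -2.29 for Sfrp1, against -0.73 to -0.60 on H1 to H4, and 1.36 for Fzd9, against -0.55 to -0.15. H1 read 0.034 for Lrp5, against 0.40 to 0.53 on the others. In 129S1/SvImJ, A4 read -0.50 for Fzd6, against -1.36 to -1.13. In (129S1xB6)F1, L1 read 0.43 for Fzd4, against 1.26 to 1.55. In (B6x129S1)F1, C2 read 0.29 for Sfrp2, against -2.13 to -1.51, and -2.13 for Dkk2, against -2.32 to -2.27.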

How the results depend on the processing

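The signal over background and 5 arrays per group limit what these comparisons can show. The strain calls of Sfrp1 and Wnt9a were kept in all 10 fits without 1 array, and the cause of the changes below was not tested. Between the strains, 4 of 41 genes were called, against 1 with median centring in place of loess (Sfrp1). The count was 2 with the name letter as a random block (consensus correlation 0.107) or with only the arrays compared (Sfrp1, Wnt9a). It was 5 without background subtraction (Fzd6, Sfrp1, Wnt10a, Wnt8b, Wnt9a). It was 3 with the mean over probes (Fzd6, Wnt6, Wnt9a) or the slide block (Sfrp1, Wnt6, Wnt9a). With the processed signals or the deposited log ratios it was again 4, with Wnt8b in the place of Wnt6. For the F1 groups minus C57BL/6J the count was 1, against 3 with the processed signals, 3 with the deposited log ratios (Fzd6, Wnt3, Wnt9a), 2 with only the arrays compared, and 0 with median centring, the mean over probes, the slide block or the name letter. For the F1 groups minus 129S1/SvImJ it was 0, against 1 with the processed signals (Wnt8b), 3 with median centring (Fzd3, Sfrp1, Wnt9b), 1 with the mean over probes or every probe on its own (Wnt6) and 1 with only the arrays compared (Sfrp1). For any difference among the 4 groups it was 2, against 4 with the processed signals and 1 with median centring, the mean over probes or the name letter. Without 1 array the counts ran from 2 to 4 between the strains, 0 to 1 for the F1 groups minus either strain, and 1 to 4 for any difference. Reciprocal and mid-parent counts stayed at 0. Dkk2 reversed to 0.0024 for the F1 groups minus 129S1/SvImJ without background subtraction, and Sfrp2 between the crosses ran from -0.030 (without C2) to 0.81 (without L4). The limma adjusted p of Wnt6 between the strains was 0.0833 with processed signals, 0.0675 with deposited ratios, 0.0928 without background subtraction and 0.496 with median centring. That of Fzd6 was 0.0636 with the slide block and 0.199 with median centring, and that of Wnt9a was 0.0716 with median centring. With median centring the median of all genes between the strains was -0.105, against 0.0042 with loess, and it gave 30.4% of calls higher in C57BL/6J, against 59.7%. For the F1 groups minus 129S1/SvImJ that median was -0.112, against 0.0097 with loess, with 12% of calls higher, against 60.8%, or 50.1% without background subtraction. Aquantile leaves the ratios as they are. Slides 1 and 5 hold strains or hybrids only. The sample names share no replicate number between groups, so slide was the block across groups.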
